A study of Mus musculus with 6 samples.

Results

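The 6 genes described here encode the proteins through which intestinal cells take up and sense short-chain fatty acids: the transporters Slc16a1 and Slc5a8, the transporter partner Bsg, and the receptors Ffar2, Ffar3 and Hcar2. They were taken by name from a table of 35434 genes, and all 6 were in it. The 4 genes Slc16a1, Slc5a8, Bsg and Ffar2 were among the 12525 genes abundant enough to be tested, and Ffar3 and Hcar2 were too low. The RNA came from the large intestine of mice with inflammatory bowel disease (IBD) into which regulatory T cells (Tregs) had been transferred. Per the series text the cells were either Ctrl-Tregs or Lenv-Tregs, and the 6 libraries carry the names int 2 and int 3 with 3 libraries each. The labels used here do not say which name stands for which transfer, and they give no strain, age or IBD model. Every difference is int 3 minus int 2, and neither name is tied to a transfer. Whether the replicates came from different mice is not stated either. Each p-value therefore sets a difference against the spread among the libraries at hand, which may be technical.

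Acetate, propionate and butyrate are made by bacteria that ferment fibre in the lumen of the large intestine, and butyrate is a main fuel of the surface epithelium there. The proton-coupled carrier MCT1, encoded by Slc16a1, and the sodium-coupled carrier SMCT1, encoded by Slc5a8, bring them into the colonocyte. Basigin, encoded by Bsg, is the membrane glycoprotein that MCT1 needs to reach the cell surface. FFAR2 and FFAR3 are G protein-coupled receptors for short-chain fatty acids found on enteroendocrine and immune cells, and HCAR2 is a receptor for butyrate, beta-hydroxybutyrate and niacin. Inside the cell butyrate is activated to its coenzyme A ester and oxidised in mitochondria, and it also inhibits histone deacetylases.

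Levels are given as FPKM, fragments scaled to 1e6 in a library and to 1 kilobase of gene, as the authors deposited them, in the order of replicates 1 to 3 of a group. Library totals recovered from the steps in the values were 34.0 to 35.1 M fragments (M, 1e6). The int 2 libraries lay close together, with a chi-square per degree of freedom that averaged 2.94 over the genes, where sampling of fragments alone gives 1, and the int 3 libraries lay far apart, with an average of 86.4. The log2 change of a gene is the mean of log2(FPKM + 1) in int 3 less that in int 2, given with its standard error (SE) and the adjusted p of limma's test across all tested genes. A gene is said to have risen or fallen only at an adjusted p under 0.05. Hoxb13, which encodes a homeobox factor of the distal colon and rectum, stood at 288, 285 and 288 FPKM in int 2 and at 146, 16.4 and 267 FPKM in int 3. Its int 3 libraries thus spanned a wide range, with int 3-2 lowest and int 3-3 nearest to int 2. Epcam, an epithelial adhesion protein, stood at 685, 700.0 and 681 FPKM in int 2 and at 638, 595 and 684 FPKM in int 3. The 8 epithelial markers were all tested, and none rose or fell (0 at an unadjusted p under 0.05, and 0 with voom). Over all 12525 tested genes, 4018 had an unadjusted p under 0.05 in limma's test. The summed levels of the 8 markers were 4864 to 4908 FPKM in int 2 and 4341 to 5508 FPKM in int 3.

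The plot of the members' levels by library shows the 6 genes side by side.

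**Figure D1:**
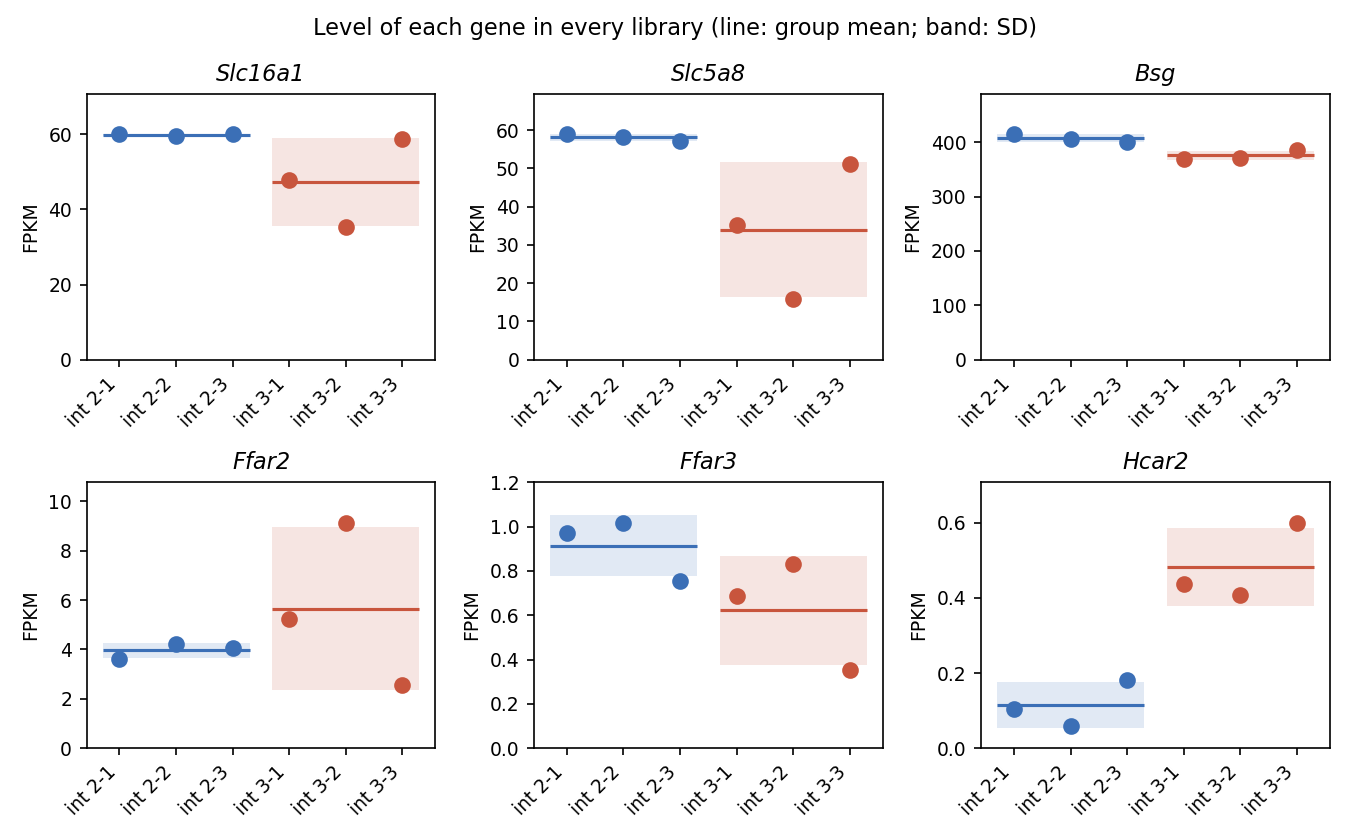
Level of each of the 6 genes in FPKM (vertical axis, linear, from 0, one scale per gene) in the 6 libraries (horizontal axis), with lines at the group means and bands of 1 SD. The int 2 libraries of Slc16a1 and Slc5a8 nearly coincide while int 3 spans 35.2 to 58.8 and 15.8 to 51.1 FPKM, Ffar2 is highest in int 3-2 at 9.14 FPKM, and Hcar2 is higher in every int 3 library than in every int 2 library.

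Of the 4 tested genes, 0 rose and 0 fell, against 15.3% of all tested genes called in either direction. At an unadjusted p under 0.05 in limma's test the count was also 0, beside 4018 of the 12525 tested genes. With limma's voom on the recovered fragments the count was 0, beside 1882 over all tested genes. In FPKM the int 3 libraries of Slc16a1, Slc5a8 and Bsg all lay below the int 2 libraries, without overlap. This held for 17.9% of all tested genes in that direction and for 40.4% in either. Set against Epcam, only Slc5a8 of these genes kept its separation. With library weights, a fit that called 73.6% of all tested genes, all 4 passed, 3 lower and 1 higher. The median log2 change of the 4 genes was -0.24, beside 0.03 over all tested genes. In bulk tissue, fewer cells of a type and less RNA per cell cannot be told apart.

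Slc16a1 stood at 60.0, 59.6 and 60.0 FPKM in int 2 and at 47.9, 35.2 and 58.8 FPKM in int 3. The int 3 libraries thus reached from 58.8% of the int 2 mean in int 3-2 through 80.0% in int 3-1 to 98.2% in int 3-3, so that int 3-3 came close to int 2 without reaching it. The group means were 59.9 ± 0.233 and 47.3 ± 11.8 FPKM (SD, n = 3 libraries each). The log2 change was -0.36 (SE 0.17, 95% interval -0.78 to 0.05, limma adjusted p = 0.202). The lack of a call depended on int 3-3: without that library Slc16a1 fell (log2 change -0.53, limma adjusted p = 0.0179), in a comparison where 39.2% of all tested genes were called.

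Slc5a8 had the widest range of the transporters. It stood at 59.0, 58.1 and 57.2 FPKM in int 2 and at 35.2, 15.8 and 51.1 FPKM in int 3, in the same order of libraries as Slc16a1 and with no overlap between the groups. The library int 3-2 held 27.2% of the int 2 mean, int 3-1 60.6% and int 3-3 87.9%. The group means were 58.1 ± 0.910 and 34.0 ± 17.7 FPKM. The log2 change was -0.90 (SE 0.38, 95% interval -1.83 to 0.03, limma adjusted p = 0.168), and without int 3-3 it was -1.26 (limma adjusted p = 0.0191).

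Slc5a8 stood further below its int 2 mean than Slc16a1 in each int 3 library. The ratio of Slc5a8 to Slc16a1, both per length, was 0.984, 0.976 and 0.952 in int 2 and 0.735, 0.450 and 0.869 in int 3. The 2 carriers were thus near parity in int 2, and Slc5a8 was the lower one in every library, most so in int 3-2. Set against Epcam, Slc5a8 kept its separation (0.0861, 0.0831 and 0.0840 of the Epcam level in int 2 against 0.0552, 0.0266 and 0.0747 in int 3). The ratio of Slc16a1 to Epcam overlapped between the groups, at 0.0876, 0.0851 and 0.0882 in int 2 and 0.0751, 0.0592 and 0.0859 in int 3.

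The spread of both carriers in int 3 exceeded the counting error of the fragments. Slc16a1 rested on 5306 fragments in int 3-2 and on 9130 in int 3-3, a ratio of FPKM of 0.599 (exact 95% interval 0.579 to 0.620, counting error only). For Slc5a8 the fragments were 2871 and 9547 and the ratio 0.310 (0.297 to 0.323). The coefficient of variation of Slc5a8 was 1.57% in int 2 and 51.9% in int 3, and 96.8% of tested genes varied less in int 3. That of Slc16a1 was 0.389% and 24.9%, with 82.6% of tested genes below it in int 3. Over all tested genes the median was 3.97% in int 2 and 11.3% in int 3. Both carriers were thus evener than most genes in int 2 and more uneven than most in int 3. The comparison is with genes of every level, and counting error is larger in genes with fewer fragments than the carriers.

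The promoters of the pair are shown because their levels had the same order across the int 3 libraries, and that of Ffar2 because it had the reverse order. The sequences are the 250 bases before each RefSeq start site (build GRCm38.p6, which is not the build of the deposited table), on the strand of the gene, 5′ to 3′. Promoters were found for 4 of the 6 genes, and not for Bsg and Hcar2. The window of Ffar3 is not printed. It held 3 CpG dinucleotides and a GC content of 48%. Capitals mark matches, on either strand, to the GC box GGGCGG or to the E box CACGTG, which reads the same on both strands.
Slc16a1, chr3:104638414-104638663, plus strand: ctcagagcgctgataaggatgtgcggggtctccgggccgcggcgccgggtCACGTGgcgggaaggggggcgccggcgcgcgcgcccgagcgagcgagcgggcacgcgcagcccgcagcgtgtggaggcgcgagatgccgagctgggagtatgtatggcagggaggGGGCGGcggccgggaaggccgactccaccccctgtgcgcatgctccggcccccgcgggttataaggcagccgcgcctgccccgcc
Slc5a8, chr10:88885742-88885991, plus strand: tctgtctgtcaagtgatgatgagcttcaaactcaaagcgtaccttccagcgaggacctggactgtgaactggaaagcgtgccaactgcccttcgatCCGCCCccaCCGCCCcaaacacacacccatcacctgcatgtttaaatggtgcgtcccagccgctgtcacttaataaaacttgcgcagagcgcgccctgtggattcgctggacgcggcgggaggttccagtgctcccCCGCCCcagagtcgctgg
Ffar2, the first of 4 annotated starts, chr7:30823776-30824025, minus strand: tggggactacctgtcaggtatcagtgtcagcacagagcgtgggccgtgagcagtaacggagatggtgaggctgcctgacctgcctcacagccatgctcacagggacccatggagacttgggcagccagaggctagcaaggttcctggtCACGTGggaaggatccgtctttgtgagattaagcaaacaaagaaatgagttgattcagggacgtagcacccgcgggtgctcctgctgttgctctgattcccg

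The Slc16a1 window held 37 CpG dinucleotides, the Slc5a8 window 17 and the window of the first Ffar2 start 9, beside a median of 6 over 32851 windows of the same length. The windows of the other 3 Ffar2 starts held 3 CpG dinucleotides each, so the Ffar2 values here hold for the first start alone. The GC content of the 3 printed windows was 76.4%, 58.8% and 56.8%, with a median of 52.4% over all windows. The GC box began at position -85 from the start of Slc16a1 and, read on the other strand, at positions -154, -145 and -18 of Slc5a8, and 32.7% of all windows held one. The E box lay at -200 in Slc16a1 and at -102 of the first Ffar2 start, and 6.02% of all windows held it. None of the 3 printed windows held TATAAA (12.4% of all windows), CCAAT (33.8%), CAATAAA (4.20%) or TCGTAAA (0.478%) on either strand. Among the other Ffar2 starts, the third held a GC box at -144 and the fourth a GC box at -197 and CCAAT at -37, all read on the other strand. CCAAT and CAATAAA can share bases, and the last pair are cores that HOX13 and CDX proteins are known to bind. A match is a description of letters in the window and not of a bound site.

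Bsg was by far the most abundant of the 6 genes and the evenest in int 3. It stood at 415, 406 and 399.8 FPKM in int 2 and at 370, 372 and 385 FPKM in int 3. All int 3 libraries lay below all int 2 libraries, at 90.9%, 91.3% and 94.7% of the int 2 mean. The group means were 407 ± 7.49 and 376 ± 8.59 FPKM, with a log2 change of -0.12 (SE 0.05, limma adjusted p = 0.161). Its coefficient of variation in int 3 was 2.29%, and 5.27% of tested genes varied less. Between int 3-2 and int 3-3, where Slc16a1 differed most, the ratio for Bsg was 0.964 (exact 95% interval 0.946 to 0.982). The ratio of Slc16a1 to its partner was therefore 0.145, 0.147 and 0.150 in int 2 and 0.130, 0.0948 and 0.152 in int 3, with overlap between the groups. The ratio of Bsg to Epcam also overlapped. It was 0.606, 0.581 and 0.587 in int 2 and 0.579, 0.625 and 0.564 in int 3. The log2 change of Bsg was -0.05 with TPM and -0.04 with quantile normalization (limma adjusted p = 0.516 and 0.652). With median-of-ratios scaling it was -0.16 (limma adjusted p = 0.189).

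In int 3 the levels of the carriers followed that of Hoxb13, and Ffar2 went against it, as the plot against Hoxb13 shows. From int 3-2 to int 3-3, int 3-1 lay 53.9% of the way for Slc16a1, 55.0% for Slc5a8, 59.1% for Ffar2 and 51.9% for Hoxb13. Most genes that differed between these libraries had the same order or its reverse: for 1123 tested genes the libraries int 3-2 and int 3-3 were more than 2-fold apart, and int 3-1 was intermediate for 97.7% of these, at a median of 52.4% of the way. Over the 6 libraries, Pearson's r with Hoxb13 on the log2 scale was 0.98 for Slc16a1, 0.99 for Slc5a8, 0.68 for Bsg and -0.90 for Ffar2. These values describe 6 libraries of which the int 2 libraries nearly coincide. Hoxb13 itself did not pass the test between the groups (limma adjusted p = 0.266). The part of tissue position in the levels of the carriers was not tested.

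**Figure D2:**
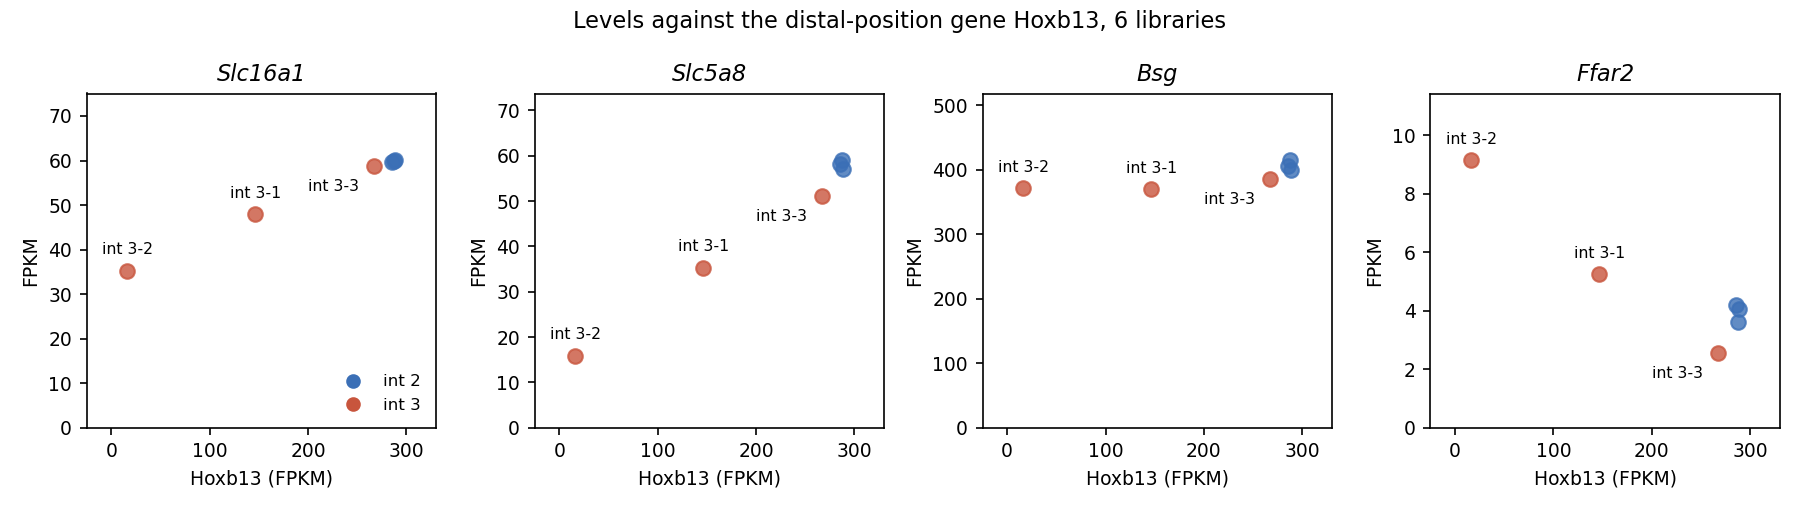
Levels of the 4 tested members in FPKM (vertical axes, linear, from 0) against the level of Hoxb13 in FPKM (horizontal axis, linear), with 1 point per library. The int 2 libraries sit together near 287 FPKM of Hoxb13, and the int 3 libraries are strung out from int 3-2 at 16.4 over int 3-1 at 146 to int 3-3 at 267, with Slc16a1 and Slc5a8 going up and Ffar2 going down along that axis.

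Likeness over the 6 libraries was measured by Pearson's r of log2(FPKM + 1), as a description. The 5 genes with the highest r to Slc16a1 were St3gal4, Rpl23a, Tnip1, Csrp2 and Npc2, with r above 0.999 among 3726 candidates that varied enough. For Slc5a8 they were Snrnp25, Rapgefl1, Gm2a, Thbs4 and Acsm3, again with r above 0.999. Acsm3, a mitochondrial enzyme that activates butyrate and medium-chain fatty acids to coenzyme A esters, stood at 93.4, 91.0 and 91.3 FPKM in int 2 and at 60.3, 28.1 and 84.7 FPKM in int 3. Its order of libraries was that of Slc5a8, and it did not pass the test (log2 change -0.80, SE 0.37, limma adjusted p = 0.194). The nearest genes were Tmem131l, Fdxr, Aard, Prpsap2 and Asrgl1 for Bsg (r of 0.98 or more) and Pln, Akr1c19, Reep5, Pcbp4 and Nolc1 for Ffar2 (r of 0.99 or more).

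Ffar2, the receptor for acetate and propionate, was low and uneven in int 3. It stood at 3.60, 4.20 and 4.07 FPKM in int 2 and at 5.25, 9.14 and 2.55 FPKM in int 3. The library int 3-2 thus lay above all int 2 libraries and int 3-3 below them, at 231% and 64.5% of the int 2 mean. The group means were 3.96 ± 0.315 and 5.65 ± 3.31 FPKM and the log2 change 0.30 (SE 0.35, 95% interval -0.56 to 1.15, limma adjusted p = 0.593). The direction depended on single libraries: without int 3-2 the log2 change was -0.071, and without int 3-3 it was 0.68 (limma adjusted p = 0.0365). The fragments behind the values were 906 in int 3-2 and 261 in int 3-3, and the ratio of FPKM was 3.58 (exact 95% interval 3.11 to 4.12).

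Marker levels of cell types known to carry Ffar2 are set beside it here, and over all tested genes 8.64% rose and 6.70% fell. The summed level of 10 enteroendocrine markers was 677 to 687 FPKM in int 2 and 451, 231 and 660 FPKM in int 3. The sum was lowest in int 3-2, where Ffar2 was highest, and so were Pyy, Insl5 and Chga singly. In int 3 Pyy stood at 229, 75.7 and 376 FPKM and Insl5 at 85.7, 22.4 and 148 FPKM. Chgb, Cck and Sct were instead highest in int 3-2, at 35.5, 4.09 and 7.93 FPKM. Gcg, Neurod1, Tph1 and Pax6 were lowest in int 3-3. Of the 9 tested enteroendocrine markers 1 rose and 1 fell, near the shares over all genes. The summed level of 10 neutrophil markers was 39.7 to 40.3 FPKM in int 2 and 77.2 to 162 FPKM in int 3. Most of it was Ly6g, at 106, 51.8 and 155 FPKM in int 3, whereas S100a8, a calcium-binding protein abundant in neutrophils, stood at 5.76, 10.5 and 3.86 FPKM. Elane, which is transcribed in immature neutrophils of the marrow and not in mature ones, was listed at 0 in all 6 libraries. Of the 3 tested neutrophil markers, 2 rose. S100a8 had the order of libraries of Ffar2 in int 3. The sum of the adipocyte markers had it too, at 51.4 to 54.0 FPKM in int 2 and 150, 227 and 84.5 FPKM in int 3. Of the 4 tested adipocyte markers 1 rose. The 7 B cell markers all fell, from a sum of 140 to 146 FPKM in int 2 to 24.5, 4.79 and 39.9 FPKM in int 3. Of the 6 tested T cell markers 3 fell, with sums of 25.4 to 27.2 FPKM in int 2 and 7.84 to 16.4 FPKM in int 3. Both lymphocyte sums were lowest in int 3-2, where Ffar2 was highest. The part of these cells in the level of Ffar2 was not tested.

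Ffar3, the receptor for propionate and butyrate, stood near the lower limit, at 0.969, 1.02 and 0.757 FPKM in int 2 and 0.685, 0.832 and 0.351 FPKM in int 3. It reached 1 FPKM in 1 library and was not tested. The groups overlapped, and int 3-3 was lowest. The 3 int 2 libraries together held 153 fragments (exact 95% interval 129.7 to 179.3) and the int 3 libraries 104 (85.0 to 126.0). On the genome of RefSeq build GRCm38.p6 Ffar3 and Ffar2 are neighbours on chromosome 7 with 1 annotated gene, Gm32236, between them. The ratio of Ffar2 to Ffar3 was 3.72, 4.13 and 5.38 in int 2 and 7.66, 11.0 and 7.28 in int 3, without overlap, although each gene overlapped between the groups on its own. The genes most like Ffar3 were Rhebl1, Airn, Wee1, Rgs1 and Snhg16 (r of 0.97 or more).

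Hcar2, the receptor for butyrate and ketone bodies, was the lowest of the 6 genes in 5 of the 6 libraries and the one with the largest fold between the groups. It stood at 0.105, 0.0596 and 0.180 FPKM in int 2 and at 0.436, 0.408 and 0.601 FPKM in int 3. All int 3 libraries lay above all int 2 libraries, which held for 22.4% of the genes that were tested, and in int 3-3 it exceeded Ffar3. The group means were 0.115 ± 0.0610 and 0.482 ± 0.104 FPKM, a ratio of 4.19. The fragments were 7, 4 and 12 in int 2 and 29, 27 and 41 in int 3, or 23 in all (exact 95% interval 14.6 to 34.5, counting error only) against 97 (78.7 to 118.3). Hcar2 did not reach 1 FPKM in any library and was not tested in the filtered set. With no filter on low values, over 24866 genes of which 6.72% were called, its log2 difference of 0.41 passed (limma adjusted p = 0.0251).

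Within int 3, Hcar2 was lowest in int 3-2 and highest in int 3-3, as the carriers were. Its ratio of int 3-2 to int 3-3 was 0.679 (exact 95% interval 0.401 to 1.13), which includes 1, so this order was not resolved at the depth of these libraries. The genes most like it were Ch25h, Srpx2, Casp4, Ptges and Hs6st1 (r of 0.99 or more). Monocytes, macrophages, neutrophils and adipocytes are known to carry this receptor besides the epithelium. The summed level of the 10 monocyte and macrophage markers was 157 to 162 FPKM in int 2 and 206 to 259 FPKM in int 3. Of the 10 tested, 5 rose and 1 fell, beside 8.64% and 6.70% of all tested genes. Adgre1, Cd68, C1qa, C1qb and C1qc rose. Ly6c2 fell, from 10.7 ± 1.82 to 4.75 ± 0.625 FPKM (limma adjusted p = 0.0065). The neutrophil and adipocyte sums given above were also higher in every int 3 library, but not every marker in them was. Most of the neutrophil sum was Ly6g. In int 3-3, where Hcar2 was highest, Adipoq at 1.34 FPKM lay within the int 2 range of 0.990 to 1.35 FPKM. Plin1 and Cidec also lay within int 2 there, whereas Fabp4 at 70.4 and Cfd at 11.3 FPKM lay above it. The part of these cells in the level of Hcar2 was not tested.

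By level per length the 6 genes fell in the order Bsg, Slc16a1, Slc5a8, Ffar2, Ffar3 and Hcar2 in both groups. The int 2 libraries of Slc16a1, from 59.6 FPKM, lay just above those of Slc5a8, up to 59.0 FPKM, and their int 3 libraries overlapped. Ffar3 and Hcar2 also overlapped in int 3, where Hcar2 at 0.601 FPKM in int 3-3 stood above Ffar3 at 0.351 FPKM.

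Around the 6 genes, 6 lists of the wider pathway were described, and each list that a member belongs to counts it too. Among the 37 tested genes of these lists other than the members, 5 rose and 10 fell, beside 8.64% and 6.70% of all tested genes in these directions. The median log2 change of the 37 was -0.11. With 1 library left out, between 2 and 27 of the 37 passed, beside 615 to 4913 of the 12525 tested genes. Without int 3-3 it was 27, beside 4913. Without int 2-1 or int 2-2 it was 2, beside 635 and 615. Each of these fits has 1 library fewer, so a lost call cannot be tied to the library left out.

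In the transport list of 12 genes 9 were tested, 1 rose and 3 fell. Slc16a3 encodes MCT4, the carrier known for lactate export from glycolytic cells. It stood at 0.929, 0.877 and 1.12 FPKM in int 2 and at 4.73, 6.56 and 2.98 FPKM in int 3, higher in every int 3 library, and rose (log2 change 1.50, SE 0.23, limma adjusted p = 0.0092). The ratio of Slc16a3 to Slc16a1 went from 0.0155, 0.0147 and 0.0187 in int 2 to 0.0987, 0.186 and 0.0507 in int 3, so Slc16a1 remained the more abundant carrier in every library. The groups did not overlap in this ratio, and it was highest in int 3-2. The call of Slc16a3 was lost without int 2-1, int 2-2 or int 3-1 (limma adjusted p from 0.0522 to 0.0529).

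The 3 transport genes that fell are ion exchangers of the apical membrane, whose activity is coupled to short-chain fatty acid uptake. Slc26a3, the chloride-bicarbonate exchanger DRA, stood at 74.2, 75.2 and 74.9 FPKM in int 2 and at 36.4, 23.7 and 46.2 FPKM in int 3 (log2 change -1.11, SE 0.22, limma adjusted p = 0.0225). Slc9a2, the sodium-proton exchanger NHE2, went from 24.5 ± 0.754 to 17.7 ± 1.61 FPKM (log2 change -0.45, SE 0.07, limma adjusted p = 0.0125). Slc9a3, the sodium-proton exchanger NHE3, stood at 9.46, 9.47 and 9.62 FPKM in int 2 and at 2.98, 5.12 and 1.13 FPKM in int 3 (log2 change -1.50, SE 0.36, limma adjusted p = 0.0387). Its order within int 3 was the reverse of that of Slc26a3, with int 3-3 lowest. The summed level of the 10 surface colonocyte markers was 2203 to 2226 FPKM in int 2 and 1523 to 1951 FPKM in int 3. Of these 10 markers 3 fell, Slc26a3 among them. Most of the difference in the sum was Guca2a, at 875 ± 6.04 and 416 ± 194 FPKM, which did not pass (limma adjusted p = 0.0593). The log2 change was below 0 for 6 markers and above 0 for 4, which were Krt20, Car1, Ceacam1 and Ms4a12. Slc5a12, the low-affinity relative of Slc5a8, was listed at 0 in all libraries. The calls of the 3 exchangers were lost with any int 2 library or int 3-1 left out (limma adjusted p from 0.0530 to 0.136). That of Slc9a3 was also lost with pseudocounts of 0.1 and 0.01, with TPM, with a replicate block and with no filter (limma adjusted p from 0.0552 to 0.0823). That of Slc26a3 was lost with no filter (0.0515).

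In the receptor list of 9 genes 4 were tested, 2 rose and 0 fell. Ffar4, a receptor for long-chain fatty acids, stood at 6.28, 6.38 and 5.90 FPKM in int 2 and at 14.4, 19.6 and 10.3 FPKM in int 3. It was the most abundant tested receptor of the list, was higher in every int 3 library and rose (log2 change 1.09, SE 0.21, limma adjusted p = 0.0194). Hcar1, the lactate receptor and a close relative of Hcar2, stood at 1.47, 1.11 and 1.12 FPKM in int 2 and at 2.18, 2.48 and 1.84 FPKM in int 3 and rose (log2 change 0.50, SE 0.11, limma adjusted p = 0.0280). Both were highest in int 3-2, as was Ffar2. Neither call held when any int 2 library or int 3-1 was left out (limma adjusted p from 0.0596 to 0.122). The call of Hcar1 was also lost with no filter (0.0662) and with a replicate block (0.0709).

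The 7 genes of receptor coupling were all tested, and 2 rose. Gnai3, an inhibitory G protein subunit, went from 45.8 ± 0.394 to 57.9 ± 3.15 FPKM (log2 change 0.33, SE 0.05, limma adjusted p = 0.0117). Gna11, a subunit of the Gq class, went from 52.8 ± 0.355 to 60.1 ± 0.876 FPKM (log2 change 0.18, SE 0.04, limma adjusted p = 0.0336). Gnai2, the most abundant of the list, stood at 147 ± 2.65 and 172 ± 16.3 FPKM and did not pass (limma adjusted p = 0.0990). The calls of Gnai3 and Gna11 were lost with any int 2 library or int 3-1 left out (limma adjusted p from 0.0578 to 0.152). Both were also lost with a replicate block (limma adjusted p = 0.0524 and 0.128). That of Gna11 was also lost with median-of-ratios scaling (limma adjusted p = 0.115) and quantile scaling (0.0696).

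In the list of activation and oxidation, 15 of 18 genes were tested, 7 fell and 0 rose. The 7 were the acetyl-CoA synthetases Acss1 and Acss2, the thiolase Acaa2, the electron transfer protein Etfdh and the propionate pathway genes Pcca, Pccb and Mcee. Mmut, also of the propionate pathway, was singled out after its values were seen. It stood at 11.7 ± 0.114 and 11.9 ± 0.371 FPKM and did not pass (log2 change 0.02, limma adjusted p = 0.806). The median log2 change of the 15 was -0.29, and 13 of them were below 0. Acaa2, which carries out the last step of mitochondrial beta-oxidation, stood at 98.2, 98.4 and 94.4 FPKM in int 2 and at 67.7, 68.4 and 63.2 FPKM in int 3. Its int 3 libraries lay close together and well below int 2 (log2 change -0.54, SE 0.05, limma adjusted p = 0.0020). Pcca, the biotin-carrying subunit of propionyl-CoA carboxylase, likewise stood at 15.8, 16.5 and 15.9 FPKM in int 2 and at 11.7, 11.3 and 11.4 FPKM in int 3 (log2 change -0.46, SE 0.05, limma adjusted p = 0.0029).

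Acaa2 and Pcca were the pathway genes that passed with each library left out in turn, with limma adjusted p from 0.00095 to 0.0220 and from 0.0022 to 0.0285. Their fall was near even over the int 3 libraries, whereas that of Acss2 was not, at 41.6, 31.1 and 52.2 FPKM in int 3 beside 68.5, 67.1 and 65.1 FPKM in int 2 (log2 change -0.70, limma adjusted p = 0.0433). The call of Acss2 was also lost with median-of-ratios scaling (limma adjusted p = 0.0596), with a replicate block (0.0772) and with no filter (0.0868). Of the other genes that fell, Pccb, the partner subunit of Pcca, went from 79.8 ± 0.214 to 62.4 ± 5.11 FPKM and Mcee from 64.4 ± 0.524 to 47.5 ± 5.52 FPKM. Etfdh went from 36.8 ± 0.687 to 29.7 ± 0.766 FPKM and Acss1 from 23.9 ± 0.646 to 19.4 ± 0.440 FPKM. In this order their limma adjusted p was 0.0196, 0.0202, 0.0096 and 0.0127. With 1 library left out it reached 0.0948, 0.0949, 0.0661 and 0.0810. With 1 library left out, between 2 and 10 genes of the list fell, beside 241 to 1789 of all tested genes.

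Not every gene of butyrate oxidation was lower. Acads, the short-chain acyl-CoA dehydrogenase that opens the oxidation of butyrate, was singled out after its values were seen. It stood at 86.3, 85.1 and 84.2 FPKM in int 2 and at 87.5, 93.4 and 82.4 FPKM in int 3, with overlap between the groups (log2 change 0.04, 95% interval -0.10 to 0.18, limma adjusted p = 0.660). Etfb, the most abundant of the list, stood at 191 ± 4.54 and 174 ± 12.2 FPKM (limma adjusted p = 0.188).

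Of the 3 ketone body genes described, 0 passed limma's test (2 at an unadjusted p under 0.05, 0 with voom). At that unadjusted p the count over all 12525 tested genes was 4018. Oxct1, the enzyme that activates ketone bodies for use as fuel and the most abundant of these, stood at 84.6, 83.0 and 85.4 FPKM in int 2 and at 65.3, 55.4 and 79.7 FPKM in int 3. All int 3 libraries lay below all int 2 libraries, in the order of Slc16a1, and the log2 change of -0.35 did not pass (SE 0.13, limma adjusted p = 0.117). Without int 3-3 it passed (log2 change -0.48, limma adjusted p = 0.0056). Of the 3 tested class I histone deacetylases 0 passed (1 at an unadjusted p under 0.05, 0 with voom). Hdac1, the most abundant of these, stood at 54.3 ± 0.830 and 62.7 ± 14.7 FPKM (limma adjusted p = 0.474).

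**Figure D3:**
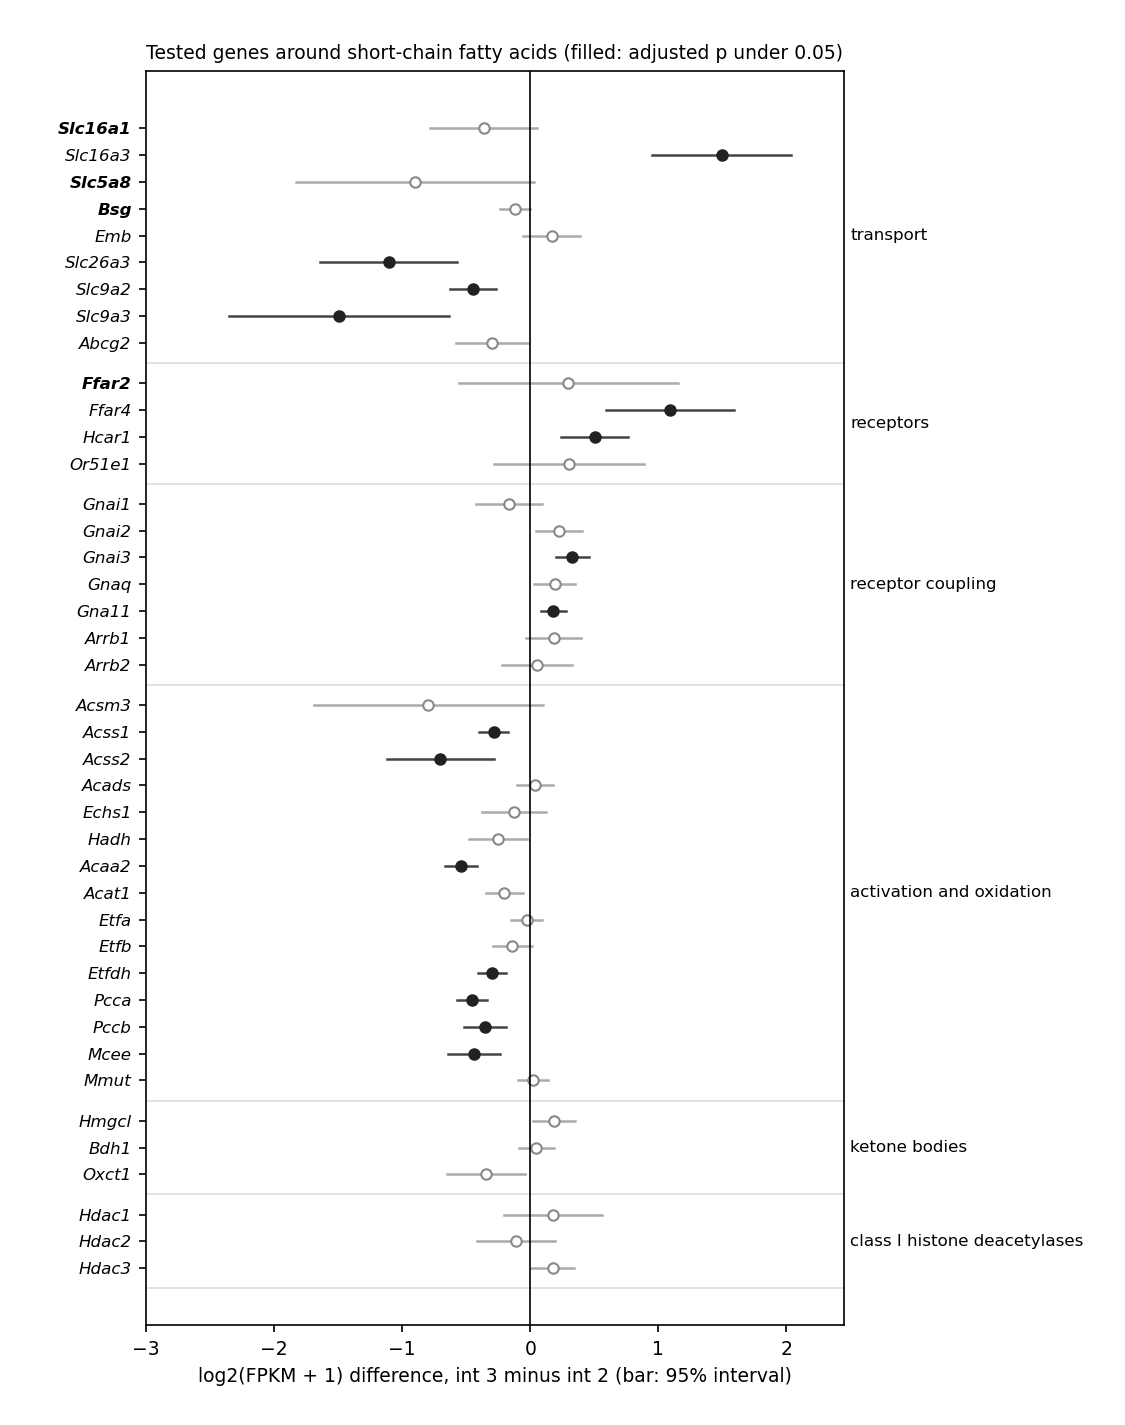
Difference int 3 minus int 2 in log2(FPKM + 1) (horizontal axis) with its 95% interval for each tested gene of the 6 lists (vertical axis, members in bold), with filled points where the limma adjusted p was under 0.05. The 4 members are open, Slc16a3, Ffar4, Hcar1, Gnai3 and Gna11 are filled on the right, and the filled points on the left are 3 exchangers and 7 genes of activation and oxidation.

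The plot of single int 3 libraries against the int 2 mean separates genes on which the int 3 libraries lay together from those on which they did not. For Slc16a1, Slc5a8, Ffar2 and Acsm3 the int 3 libraries were spread out, with int 3-2 and int 3-3 at the ends. For Bsg, Acaa2, Pcca, Etfdh, Acss1 and Gna11 they lay close together. Slc16a3, Slc26a3, Slc9a3 and Ffar4 were spread out as well. Among the spread-out genes named here, Ffar2 was the one with int 3 libraries on both sides of int 2, and the others had every int 3 library on the same side and outside the range of int 2.

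**Figure D4:**
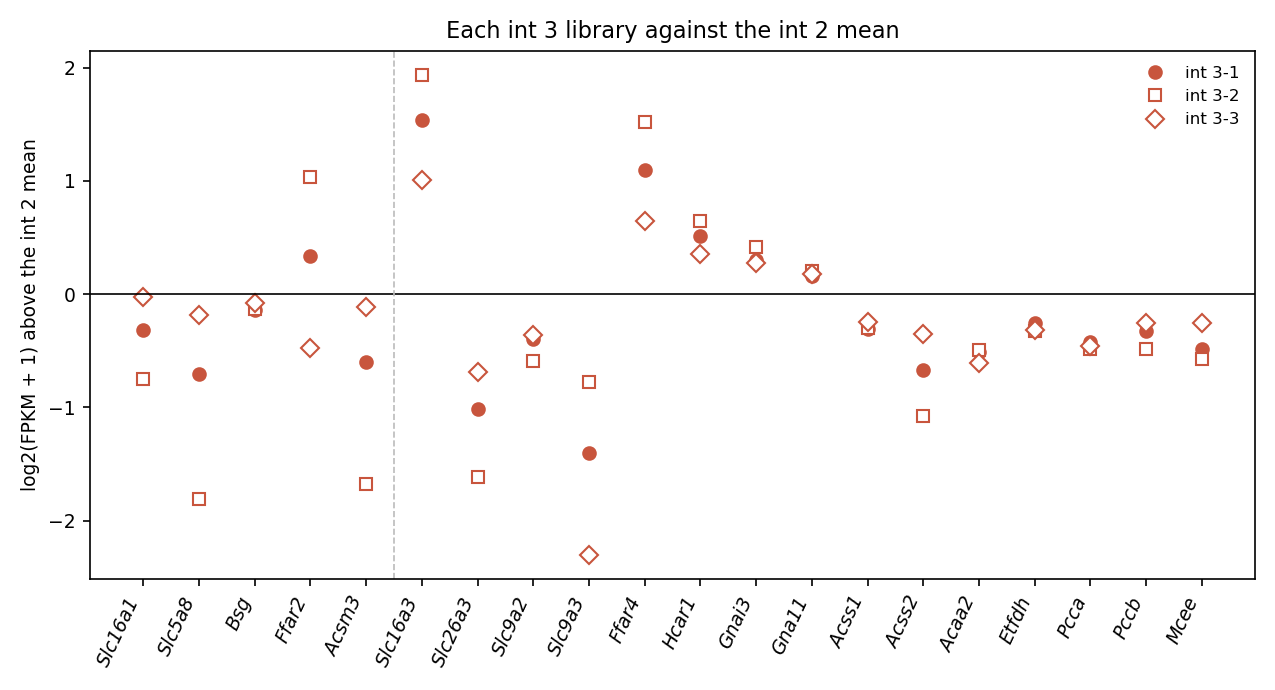
Difference of each int 3 library from the int 2 mean in log2(FPKM + 1) (vertical axis) for the tested members with Acsm3 (left of the dashed line) and the pathway genes that passed the test (right of it), with 1 symbol per library. The symbols of Slc5a8 run from -1.81 in int 3-2 to -0.18 in int 3-3, while those of Pcca lie between -0.48 and -0.43.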

How the data were processed

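Per the labels' protocols, total RNA of 6 mouse large intestine samples was isolated with TRIzol and sequencing libraries were prepared with the VAHTS Universal V10 kit. The FPKM table that the authors deposited lists 35434 gene symbols. The unit follows from its name and its values. Reads were placed on build GRCm39, per the submitters' processing notes. Which aligner, counter and annotation were used, and how reads of overlapping genes or either strand were treated, is not given in the sources used here. Columns were matched to samples by title, and 0 columns were left aside.

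FPKM steps gave back whole fragments for 12522 of 12525 tested genes (99.976%, relative tolerance 1e-06), with library totals of 34.0 to 35.1 M (1e6). They were used for exact counting intervals, which cover counting error only, and for 1 alternative test.

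A gene was tested if its FPKM was 1 or more in 3 or more of the 6 libraries. limma 3.58.1 (R 4.3.3) compared log2(FPKM + 1) of int 3 with int 2 by lmFit and eBayes (trend, two-sided). P-values were adjusted after Benjamini and Hochberg over the 12525 genes, with a threshold of 0.05. The pseudocount understates changes of low genes. Errors are SDs over 3 libraries. The fit assumes 1 spread for both groups and was tested on simulated data.

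The members and lists were chosen with earlier results of these data known. The text names the 6 members, the 5 genes most like each over the 6 libraries (Pearson's r of log2(FPKM + 1), SD of 0.2 or more), the genes of each pathway list that passed, the most abundant tested gene of each list, and Hoxb13, Epcam and marker genes as levels. 1 listed gene is not reported here. Alternatives were a pseudocount of 0.1 or 0.01, testing all genes or those with a mean FPKM of at least 5, scaling by TPM, median of ratios or quantiles, a replicate block, a robust prior, library weights, voom on the fragments, and dropping each library. After seeing the data, int 2 averaged to 1 sample was added.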

Additional observations from a re-analysis of the deposited data

How the results depend on the processing

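The number of genes called (1921) was 889 with the replicate block, 9221 with library weights, whose estimation did not fully converge, and 615 to 4913 with 1 library left out. With int 2 averaged to 1 sample, chosen after seeing the data and with the lone sample assumed to vary like int 3, it was 0 in limma (1130 at an unadjusted p under 0.05). Of the calls 56.3% were higher in int 3, beside 67.7% of 1883 calls in TPM. Median-of-ratios scaling gave 51.4% of 2025 and quantile normalization 48.5% of 2189, where most calls were lower.

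Among the members, 1 passed with no filter, 4 with library weights and 0 to 3 with 1 library left out, 3 of them without int 3-3. Of the other pathway genes (15) 6 passed with the replicate block, 32 with library weights, 2 to 27 with 1 library left out and 0 with int 2 averaged. The 6 that passed with the replicate block were Slc16a3, Slc26a3, Slc9a2, Ffar4, Acaa2 and Pcca. With library weights Slc16a1 was at -0.32, Slc5a8 at -0.71, Bsg at -0.14 and Ffar2 at 0.34, all past the threshold. With 1 library left out Slc16a1 ranged from -0.53 to -0.17, Slc5a8 from -1.26 to -0.44 and Ffar2 from -0.071 to 0.68. Ffar3 was at -0.54 and -0.62 with pseudocounts of 0.1 and 0.01. Hcar2 was at 1.46 and 2.07 with these and at 0.68 with TPM. The sign turned for Ffar2 without int 3-2 (-0.071) and for Acads with median-of-ratios scaling (-0.0011) and without int 3-2 (-0.0049). With 1 library left out Acads ranged from -0.0049 to 0.084. The cause was not tested.

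Same-numbered libraries of the groups did not deviate together from their group means (correlations of -0.0147, 0.0041 and -0.0215). The int 2 deviations were near counting error, with a median chi-square per degree of freedom of 1.74. The correlations therefore cannot decide whether same-numbered libraries share more than a number. The int 2 libraries varied far less than int 3, while the test assumes 1 spread. Ffar3 and Hcar2 rest on 4 to 57 fragments a library.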
